A study of Mus musculus with 15 samples.

Results

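Genes of the Wnt pathway were examined in 21EM15 cells, a mouse lens epithelial cell line, grown flat or as spheroids. A list of 40 genes, from ligand secretion to feedback targets, was matched by symbol to both deposited expression tables. Of the 40, 38 were found among the 11677 genes of the culture table and 34 among the 11299 genes of the region table, and these 34 were present in both. *Wnt5b*, *Fzd1*, *Fzd7* and *Lef1* were present in the culture table only, and *Sfrp2* and *Nkd1*, absent from both, were not analysed here.

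Wnt proteins are secreted signalling ligands that carry a lipid, added in the endoplasmic reticulum by the acyltransferase Porcupine (*Porcn*), and are brought to the cell surface by the carrier Wntless (*Wls*). At the surface they bind Frizzled receptors, together with the co-receptors Lrp5 and Lrp6 in the branch that stabilises β-catenin, or with Ror and Ryk in branches that do not need it, while secreted proteins of the Dickkopf and Sfrp families modulate that binding. Stabilised β-catenin enters the nucleus and works with factors of the TCF/LEF family, and *Axin2* is a widely used transcriptional target that feeds back on the pathway. In the lens, Wnt signalling is known for its part in the maintenance of the epithelium and in the organisation of the fiber cells.

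Total RNA of the wild-type line was compared between 4 samples of 2D cultures, each a dish of adherent cells near confluence, and 4 samples of 3D spheroids grown in wells with a non-adhesive coating. By the study's methods spheroids were cultured for longer than dishes, so time in culture and the 3D form cannot be told apart. A separate set consisted of the internal region (4 samples) and the external region (3 samples) of spheroids, cut out by laser capture microdissection. The study chose the region samples by their expression and left out a further external sample that differed from those kept. The spread of the external group may therefore be too small, which bears on the p-values and on the counts without overlap in the regions. No sample carried a treatment or an engineered allele, all came from 1 cell line, and each 3D or microdissected sample pooled many spheroids. The sources give a dish or a pool of spheroids for each replicate but not whether these were independent in passage or day, so the p-values below measure the spread between these samples, which may be technical.

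Expression is given as log2 CPM, the log2 of read numbers scaled to library size, with a small prior count added by the authors. The libraries were made from 3′ ends, so that read numbers do not scale with transcript length. The listed genes took between 7305053 and 9362587 reads per culture sample and between 4044230 and 11702504 per region sample. A count of 3 reads, the smallest signal considered here, corresponded to between 0.312 and 0.409 CPM in the cultures and to between 0.248 and 0.802 CPM in the regions, and these limits cover counting error only. Because each table was normalised on its own, no level was compared between them. A gene was called where limma's adjusted p was below 0.01 and the log2 fold change exceeded 1 in size (two-sided, Benjamini-Hochberg over all genes of the table). Fold changes are 3D minus 2D or internal minus external. Among the 2D samples, replicate 3 stood apart, with 190 genes at 0 reads where the others had 21, 41 and 68. It held the lowest 2D values of *Dkk3*, *Wnt6*, *Sfrp1* and *Vangl2*. Without it, the 4 members called higher in 3D were again *Porcn*, *Wls*, *Wnt6* and *Dkk3*, with log2 fold changes of 2.78, 1.5, 2.53 and 1.95. Some libraries were often the highest of their group, replicate 1 of 2D in 19 of 38 members and external replicate 1 in 17 of 34. Others were often the lowest: replicate 2 of 2D in 19 and replicate 2 of 3D in 20 of the 38 members, and external replicate 3 in 19 of the 34.

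Of 15 lens markers, *Pax6*, *Six3*, *Prox1*, *Maf*, *Cryab* and *Mab21l1* were measured in both tables, and *Bfsp1* and *Hsf4* in the region table only. Others, such as *Foxe3*, *Cryaa*, *Crygs* and *Mip*, were not among the genes analysed. The summed level of the measured markers lay between 848 and 1206 CPM in 2D and between 1485 and 1825 CPM in 3D, with 0 of the 6 called. In the external region it lay between 907 and 1017 CPM and in the internal region between 1376 and 1709, with *Prox1*, *Maf* and *Hsf4* called higher. No endothelial or pigment cell marker was measured, and the immune markers measured (*Cd68*, and in the regions *Csf1r*) summed to at most 10.0 CPM in any sample. Since the samples are bulk RNA, fewer cells of a type and less RNA per cell cannot be told apart in any value below.

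In 3D against 2D, 4 of the 38 members were called higher (10.5%), where 2.92% of all genes were, and 0 were called lower, where 1.51% of all genes were. The members were chosen with earlier results of these data known, so their shares, here and in the regions, do not test the pathway as a set. The 4 were *Porcn*, *Wls*, *Wnt6* and *Dkk3*, which act in ligand secretion, as a ligand and as a secreted member of the Dickkopf family. Without adjustment, limma gave a p under 0.05 to 9 members with a positive and 1 with a negative fold change, where 16.7% and 17.0% of all genes had one. Limma's voom on the recovered reads also called 4 higher and 0 lower. Without 3D replicate 1, 3 or 4 the number called higher was 2, *Porcn* and *Wls*. The groups did not overlap in 9 of the 38 members, 8 of them upward, and in 24.0% of all genes, 12.0% upward. The median log2 fold change was 0.18 over the members and -0.03 over all genes.

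In the internal against the external region, 2 of the 34 members were called higher (5.88%, against 3.27% of all genes), *Wls* and *Fzd6*, and 1 was called lower (2.94%, against 4.35% of all genes), *Dkk2*. The groups did not overlap in 9 of the 34 members, of which 7 were higher and 2 lower in the internal region, and in 29.0% of all genes, 13.5% higher and 15.4% lower. Limma gave a p under 0.05 without adjustment to 7 members with a positive and 3 with a negative fold change, where 16.1% and 17.5% of all genes had one. Voom also called 2 higher and 1 lower. The number called higher was 1 without internal replicate 2 or external replicate 2 and 0 without external replicate 3. The median log2 fold change was 0.24 over the members and 0.04 over all genes. *Wls* was called higher in both comparisons.

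**Figure D1:**
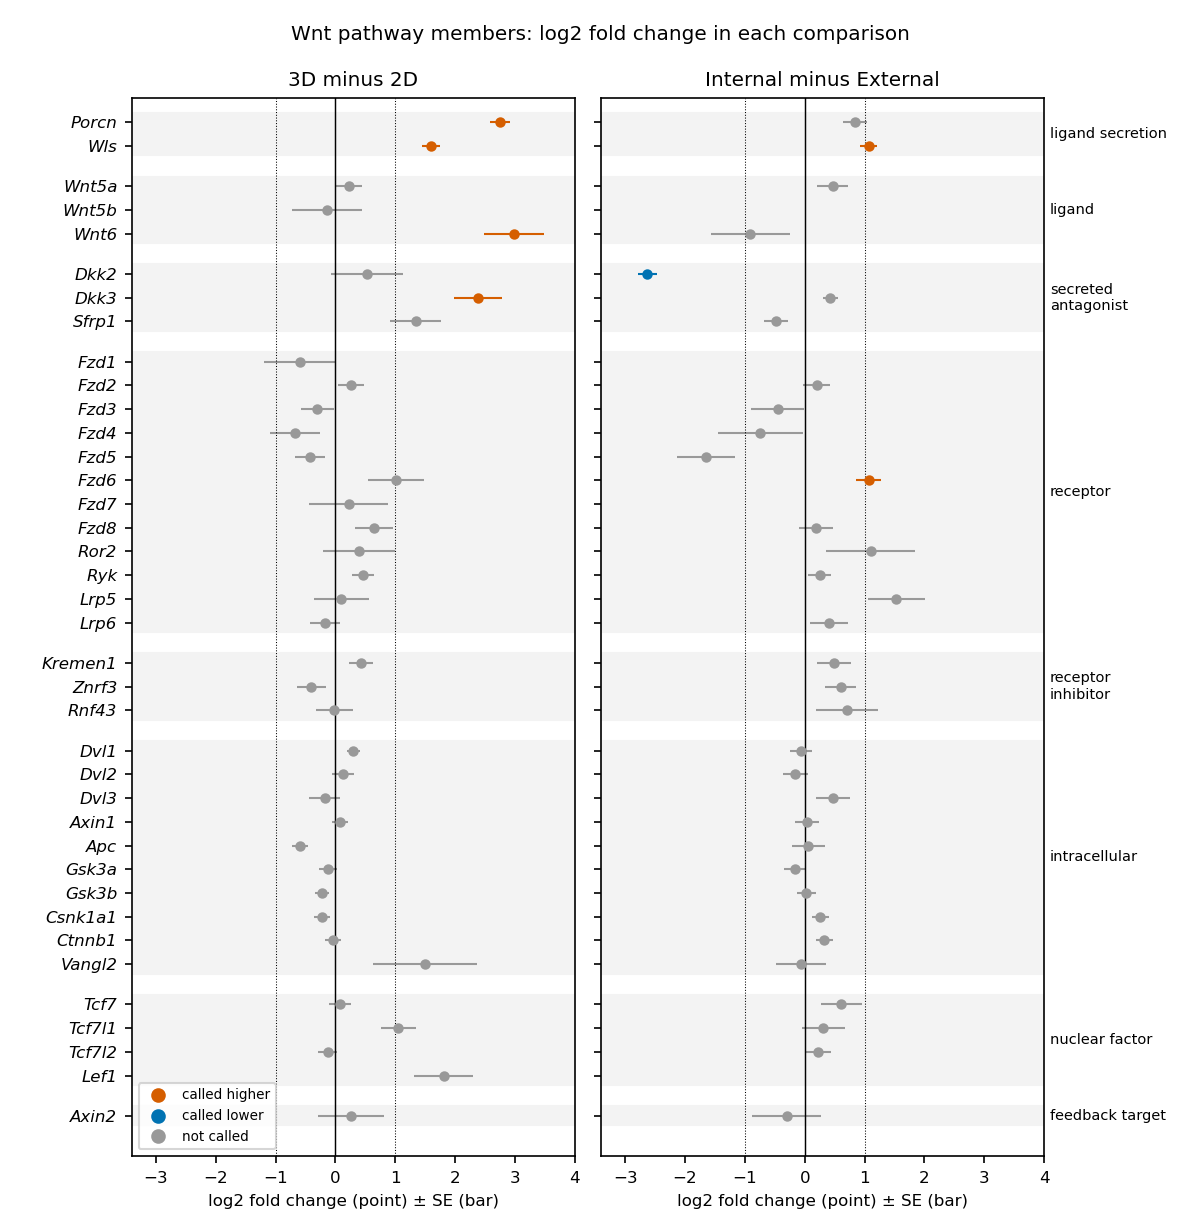
Log2 fold change (x axis) of each Wnt pathway member (y axis, grouped by role), 3D minus 2D on the left and internal minus external on the right; points are limma estimates, bars are standard errors, dotted lines mark a log2 fold change of -1 and 1. In 3D, the secretion genes *Porcn* and *Wls* sit at 2.75 and 1.59, and in the regions *Dkk2* stands alone at -2.63.

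Both genes of ligand secretion were higher in 3D. *Porcn* (chrX:8193848-8206525, minus strand, GRCm38), the acyltransferase, had 3.07, 3.37, 3.23 and 2.95 log2 CPM in the 2D samples and 5.68, 5.87, 6.01 and 6.06 in the 3D samples. The 2D samples held between 72 and 78 reads of it and the 3D samples between 399 and 538, with no overlap and little spread within a group. Its log2 fold change was 2.75 (SE 0.17, adjusted p = 4.14e-05), a 6.73-fold higher level. In the regions, *Porcn* had 6.05, 6.02 and 5.46 log2 CPM in the external and 6.49, 6.86, 6.37 and 7.0 in the internal samples. All internal samples lay above all external ones, with a log2 fold change of 0.84 (SE 0.20, adjusted p = 0.00382) that was under the fold threshold.

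*Wls* (chr3:159839672-159938664, plus strand, GRCm38), the carrier of Wnt proteins, was among the more abundant members. It had 7.89, 8.04, 7.64 and 8.06 log2 CPM in 2D and 9.45, 9.24, 9.73 and 9.59 in 3D, a log2 fold change of 1.59 (SE 0.15, adjusted p = 0.000355) or 3.02-fold. In the external region it had 8.82, 8.42 and 8.24 log2 CPM and in the internal region 9.62, 9.61, 9.43 and 9.59. The internal samples were nearly level with each other and lay above every external sample, with a log2 fold change of 1.07 (SE 0.14, adjusted p = 6.55e-06). Without external replicate 3, the lowest sample, the value was 0.94, under the fold threshold, and without the variance trend the adjusted p was 0.0142.

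The promoter entries of RefSeq on GRCm38.p6 covered 25 of the 40 members. Printed beside *Wls*, *Wnt6* and *Dkk2* are the 250 bases before the annotated start, because these members carry the calls and have an entry, which *Porcn*, *Dkk3* and *Fzd6* have not. Capitals mark 3 motifs searched on both strands, the GC box GGGCGG, the TATA box TATAAA and the TCF/LEF motif ATCAAAG, and no matches overlapped in these windows. Over 32851 promoter windows of the same length, 32.7% held the GC box, 12.4% the TATA box and 3.21% the TCF/LEF motif. Of the 25 member genes with an entry, 20 held a GC box, 8 a TATA box and 1, *Wnt5b*, the TCF/LEF motif. These are counts of genes, which had 34 windows in all, while the shares above are of single windows, so they cannot be compared directly. A match is a description of the letters and not of a bound site. The window of *Wls*, chr3:159839400-159839649 on the plus strand, held 1 GC box and 58.0% G and C. It lies before the start in RefSeq, which is upstream of the GENCODE start of *Wls* printed above, so the window does not reach the latter.
Wls: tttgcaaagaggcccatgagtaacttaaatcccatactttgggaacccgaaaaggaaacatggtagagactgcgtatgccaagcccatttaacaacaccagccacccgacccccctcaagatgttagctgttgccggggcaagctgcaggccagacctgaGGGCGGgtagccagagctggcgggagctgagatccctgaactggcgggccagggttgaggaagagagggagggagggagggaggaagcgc

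Among the 3 listed ligands, *Wnt6* was higher in 3D and *Wnt5a* was the most abundant. *Wnt6* (chr1:74771892-74785322, plus strand, GRCm38), a ligand described in epithelia, had 7, 4, 0 and 5 reads in the 2D samples and 42, 31, 48 and 28 in the 3D samples. The 0 reads of 2D replicate 3 allow up to 0.351 CPM. On the log2 CPM scale, 2D had -0.04, -0.35, -2.06 and -0.40 and 3D had 2.49, 2.02, 2.69 and 1.89, so the groups did not overlap although 2D stayed near the smallest signal. The log2 fold change was 2.98 (SE 0.50, adjusted p = 0.00355), and the mean level was 0.450 CPM in 2D and 4.72 CPM in 3D. The adjusted p exceeded 0.01 without 3D replicate 1 (0.0148), 3D replicate 3 (0.0187) or 3D replicate 4 (0.0136), and with a prior count of 0.5 (0.0118). In the regions, *Wnt6* overlapped between the external (3.50, 1.31 and 2.96 log2 CPM) and internal samples (0.44, 1.91, 2.65 and 1.75), with a log2 fold change of -0.91 (95% interval -2.27 to 0.46, adjusted p = 0.363).

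The window before *Wnt6*, chr1:74771642-74771891 on the plus strand, is shown as that of the called ligand. It held 6 GC boxes, no TATA box and no TCF/LEF motif, at 79.6% G and C.
Wnt6: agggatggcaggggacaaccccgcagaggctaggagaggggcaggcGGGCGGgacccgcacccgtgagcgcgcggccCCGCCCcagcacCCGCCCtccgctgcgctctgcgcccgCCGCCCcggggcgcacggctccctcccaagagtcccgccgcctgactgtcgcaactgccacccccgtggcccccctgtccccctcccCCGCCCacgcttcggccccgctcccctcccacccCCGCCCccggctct

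*Wnt5a*, a ligand best known for branches that do not need β-catenin, had 5.45, 4.50, 5.03 and 5.30 log2 CPM in 2D and 5.25, 4.98, 5.48 and 5.45 in 3D. These overlapped, with a log2 fold change of 0.22 (95% interval -0.26 to 0.71, adjusted p = 0.507). In the external region it had 4.87, 5.54 and 4.65 and in the internal region 5.71, 4.87, 5.60 and 5.80, again overlapping, with a log2 fold change of 0.47 (95% interval -0.07 to 1.02, adjusted p = 0.213). Of the reads of the 3 ligands, *Wnt5a* held 93.0% ± 6.88 (SD, n = 4) in 2D and 86.5% ± 3.08 in 3D, while *Wnt6* held 1.24% ± 0.874 and 10.4% ± 2.30. These shares leave out *Wnt7b*, a ligand outside the 3, with 16 to 105 reads in 2D and 162 to 326 in 3D. The external samples had 5.59 log2 CPM or more of *Wnt7b* and 5.54 or less of *Wnt5a*. The internal samples had 4.76 or less of *Wnt7b* and 4.87 or more of *Wnt5a*. *Wnt5b*, a close relative of *Wnt5a*, took between 4 and 30 reads per culture sample, with a log2 fold change of -0.14 (95% interval -1.45 to 1.17, adjusted p = 0.889).

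Of the secreted antagonists, *Dkk3* was called in 3D against 2D and *Dkk2* between the regions, and the difference between the comparisons was not tested. *Dkk3* (chr7:112116017-112159057, minus strand, GRCm38), a divergent member of the Dickkopf family, had 8.27, 8.48, 6.25 and 7.33 log2 CPM in 2D and 9.71, 10.09, 10.10 and 9.99 in 3D. The 3D samples were close to each other and above all 2D samples, which were spread, with 647 reads in 2D replicate 3 and 2943 in 2D replicate 1. Its log2 fold change was 2.39 (SE 0.40, adjusted p = 0.00368), or 5.24-fold. The adjusted p exceeded 0.01 without 2D replicate 4 (0.0134) or without 3D replicate 1 (0.0108), 2 (0.0113), 3 (0.0167) or 4 (0.0166), without the variance trend (0.0127) and with a robust variance prior (0.0102). In the regions *Dkk3* had 10.01, 9.85 and 9.78 log2 CPM in the external and 10.31, 10.27, 10.35 and 10.33 in the internal samples. These did not overlap, but the log2 fold change of 0.43 (SE 0.12, adjusted p = 0.0132) was not called.

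*Dkk2* (chr3:132085292-132180304, plus strand, GRCm38), a Dickkopf protein that binds Lrp5 and Lrp6, was the member with the largest difference between the regions. It had 10.26, 10.26 and 10.58 log2 CPM in the external and 7.55, 7.60, 8.26 and 7.54 in the internal samples. The external samples held between 5646 and 7457 reads and the internal ones between 1250 and 2245, so the groups lay far apart. The internal level was 6.20-fold lower, with a log2 fold change of -2.63 (SE 0.16, adjusted p = 7.1e-11). In culture *Dkk2* had 9.30, 8.35, 6.06 and 7.16 log2 CPM in 2D and 8.43, 9.19, 7.75 and 7.60 in 3D. The 2D samples alone spanned 566 to 6024 reads and enclosed all 3D samples, with a log2 fold change of 0.53 (95% interval -0.81 to 1.86, adjusted p = 0.576).

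The window before *Dkk2*, chr3:132085042-132085291 on the plus strand, is shown as that of the member lower in the internal region. It held 2 GC boxes and, 32 bases before the start, a TATA box, at 55.6% G and C.
Dkk2: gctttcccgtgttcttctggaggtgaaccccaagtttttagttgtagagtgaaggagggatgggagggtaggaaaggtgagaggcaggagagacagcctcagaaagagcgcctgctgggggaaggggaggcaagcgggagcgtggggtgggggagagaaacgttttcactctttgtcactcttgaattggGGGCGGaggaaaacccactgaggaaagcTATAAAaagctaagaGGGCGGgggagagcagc

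Reads of *Dkk3* per read of *Dkk2* were 0.489, 1.09, 1.14 and 1.12 in the 2D samples and 2.43, 1.86, 5.10 and 5.23 in the 3D samples. They were 0.839, 0.751 and 0.573 in the external and 6.76, 6.38, 4.27 and 6.91 in the internal samples. The ratio was chosen after its values were seen and is given as a description. *Sfrp1*, a soluble Frizzled-related protein that binds Wnts, had 5.45, 5.51, 3.37 and 5.24 log2 CPM in 2D and 6.60, 6.48, 6.03 and 5.85 in 3D. All 3D samples lay above all 2D samples, 2D replicate 3 was far below its group, and the log2 fold change of 1.34 (SE 0.42, adjusted p = 0.0494) did not pass the test. In the regions its log2 fold change was -0.48 (95% interval -0.89 to -0.08, adjusted p = 0.082).

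**Figure D2:**
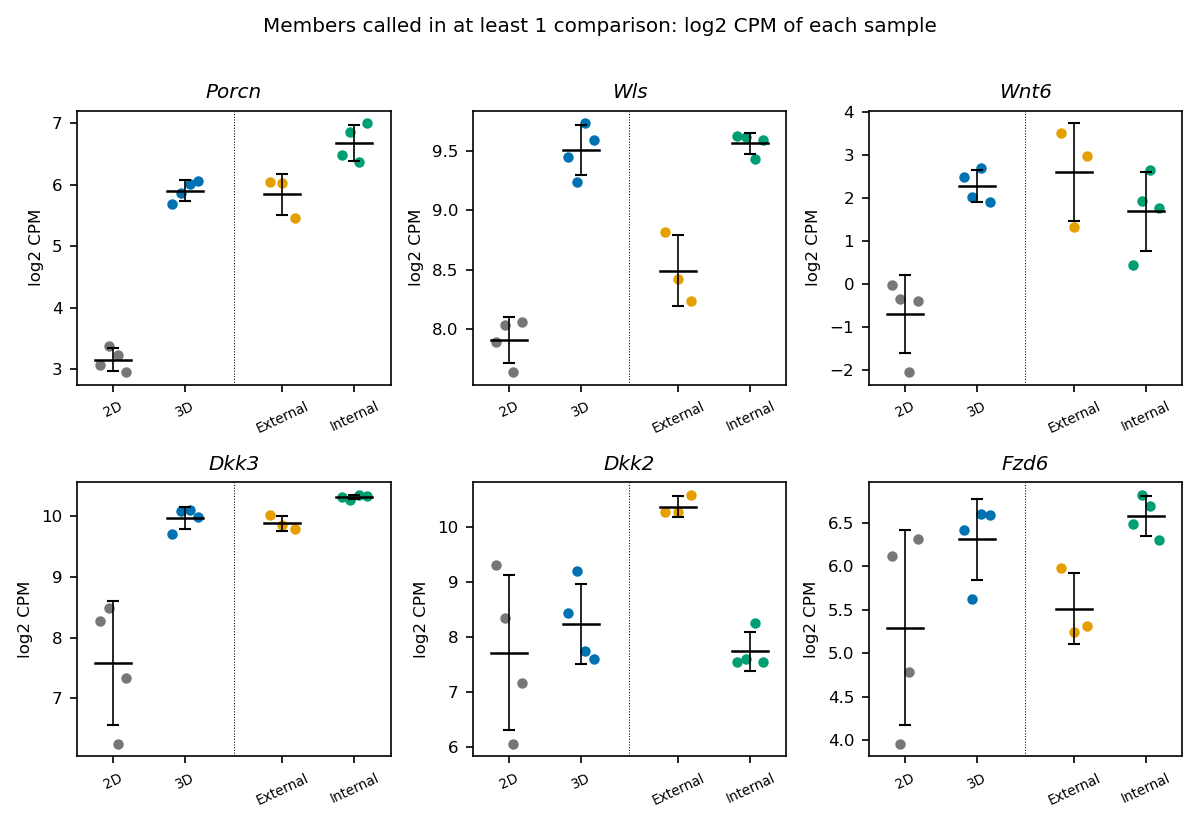
Log2 CPM (y axis) of the 6 members called in at least 1 comparison, 1 point per sample, with the group mean (line) and SD (bar); the dotted line separates the 2 tables, which were normalised separately. *Porcn*, *Wls*, *Wnt6* and *Dkk3* show no overlap between 2D and 3D, and *Dkk2* lies at 10.26 or above in the external and at 8.26 or below in the internal samples.

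**Figure D3:**
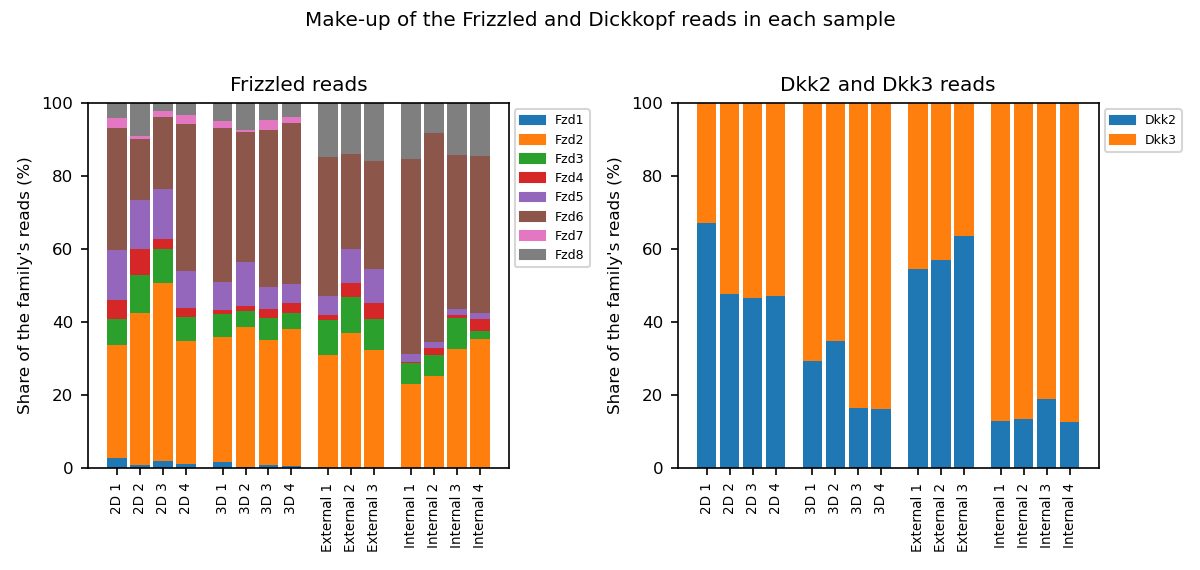
Share of reads (y axis, percent) that each Frizzled gene (left) or each of *Dkk2* and *Dkk3* (right) took of its family's reads, 1 bar per sample. *Fzd2* and *Fzd6* fill most of each Frizzled bar, and *Dkk3* takes most of the Dickkopf reads in the 3D and internal samples.

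Among the 12 receptors and co-receptors, 0 were called in 3D against 2D, with a p under 0.05 without adjustment for 1, *Ryk*, and 0 called by voom. Of all genes, 2.92% were called higher and 1.51% lower, and 16.7% and 17.0% had a p under 0.05 with a positive and a negative fold change, so 0 of 12 called is not a result about the receptors. Their log2 fold changes ran from -0.68 (*Fzd4*) to 1.01 (*Fzd6*). *Ryk*, a Wnt-binding receptor and the most abundant of them, had 8.23, 7.49, 7.75 and 8.21 log2 CPM in 2D and 8.47, 8.09, 8.46 and 8.48 in 3D. The groups overlapped through 3D replicate 2, with a log2 fold change of 0.46 (95% interval 0.05 to 0.86, adjusted p = 0.105). In the regions *Ryk* had 7.35, 6.90 and 6.34 in the external and 7.01, 7.22, 7.26 and 6.96 in the internal samples, with a log2 fold change of 0.25 (95% interval -0.15 to 0.65, adjusted p = 0.39).

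*Fzd6* (chr15:39006034-39038188, plus strand, GRCm38), a Frizzled receptor known for its part in tissue polarity, was called between the regions. It had 5.98, 5.24 and 5.31 log2 CPM in the external and 6.48, 6.82, 6.69 and 6.30 in the internal samples, without overlap. Its log2 fold change of 1.07 (SE 0.21, adjusted p = 0.000523) lay close to the fold threshold. It was 0.98 without internal replicate 2, 0.93 without external replicate 2, 0.97 without external replicate 3 and 1.0, not over the threshold, with samples centred on their medians. Without the variance trend the adjusted p was 0.0303. In culture *Fzd6* had 6.12, 3.96, 4.79 and 6.31 log2 CPM in 2D and 6.42, 5.62, 6.60 and 6.59 in 3D. The wide spread of 2D overlapped 3D, and the log2 fold change of 1.01 (95% interval -0.02 to 2.05, adjusted p = 0.157) did not pass the test.

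*Fzd5*, *Lrp5* and *Ror2* had estimated log2 fold changes over 1 in size between the regions and did not pass the test. *Fzd5*, a Frizzled receptor with a role in eye development, had 3.17, 3.79 and 3.62 log2 CPM in the external and 1.96, 1.77, 2.07 and 1.71 in the internal samples. The groups did not overlap, and the log2 fold change of -1.65 (SE 0.48) had an adjusted p of 0.0155, or 0.00482 without the variance trend. *Lrp5*, a co-receptor, went the other way, with 2.56, 1.54 and 1.57 log2 CPM in the external and 3.41, 3.82, 3.50 and 2.95 in the internal samples. Its groups did not overlap either, with a log2 fold change of 1.53 (SE 0.48, adjusted p = 0.0234). *Ror2*, a receptor for Wnt5a, had 0.84, 0.23 and 0.93 in the external and 0.44, 2.00, 2.48 and 2.15 in the internal samples, which overlapped through internal replicate 1 (log2 fold change 1.10, SE 0.75, adjusted p = 0.325). External samples held at most 9 reads of *Ror2*.

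The remaining receptors were not called. *Lrp6*, the co-receptor with the higher read number, had log2 fold changes of -0.18 in 3D (95% interval -0.75 to 0.38) and 0.41 in the internal region (95% interval -0.25 to 1.08). In culture, *Lrp5* had a log2 fold change of 0.10 (95% interval -0.92 to 1.13) and *Ror2* of 0.39 (95% interval -0.94 to 1.72). *Fzd2* had 0.26 and 0.20, *Fzd3* -0.30 and -0.45, *Fzd4* -0.68 and -0.74, and *Fzd8* 0.65 and 0.19, for 3D and for the internal region. *Fzd5* had -0.42 in 3D, and *Fzd1* and *Fzd7*, measured in culture only, had -0.59 and 0.22. None of these had an adjusted p under 0.177.

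*Fzd2* and *Fzd6* supplied most Frizzled reads. *Fzd2* held 38.8% ± 8.13 (SD, n = 4) of them in 2D and 36.1% ± 2.02 in 3D, and 33.4% ± 3.10 (n = 3) in the external and 29.0% ± 5.86 in the internal region. *Fzd6* held 27.6% ± 11.3 in 2D and 41.2% ± 3.79 in 3D, and 31.3% ± 6.24 in the external and 49.1% ± 7.47 in the internal region. In 2D its share ran from 16.7% to 40.5% and overlapped 3D (35.6% to 44.0%), while the regions did not overlap (26.0% to 38.2% against 42.4% to 57.3%). *Fzd5* held 7.94% ± 2.28 in the external and 1.75% ± 0.275 in the internal region. These shares are descriptions, with no test.

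The 3 inhibitors that act on receptors, *Kremen1*, a Dickkopf-binding membrane protein, and *Znrf3* and *Rnf43*, ubiquitin ligases that remove Frizzled from the surface, were not called in either comparison. *Znrf3*, with the highest mean over all samples of each table (in 3D alone *Kremen1* was higher, at 4.52 against 4.28 log2 CPM), had 4.55, 4.32, 4.56 and 5.28 log2 CPM in 2D and 4.58, 4.36, 3.86 and 4.32 in 3D, which overlapped (log2 fold change -0.40, SE 0.24, adjusted p = 0.265). In the regions it had 4.41, 4.59 and 4.23 in the external and 4.99, 4.85, 4.83 and 5.37 in the internal samples, which did not overlap (log2 fold change 0.60, SE 0.26, adjusted p = 0.1). *Kremen1* had log2 fold changes of 0.43 and 0.49 and *Rnf43* of -0.02 and 0.71, in 3D and in the internal region, none past the test.

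The 10 intracellular members include the Dishevelled proteins, the complex that marks β-catenin for degradation (*Axin1*, *Apc*, *Gsk3a*, *Gsk3b*, *Csnk1a1*), β-catenin itself and the polarity protein *Vangl2*. In 3D against 2D 0 of the 10 were called, where limma gave a p under 0.05 without adjustment to 1 with a positive and 1 with a negative fold change, and voom called 0. The shares of all genes were 2.92% called higher, 1.51% called lower, and 16.7% and 17.0% with such a p, so these counts are not a result about the group. *Ctnnb1*, which encodes β-catenin, had 8.82, 8.56, 8.98 and 8.88 log2 CPM in 2D and 8.71, 8.57, 8.93 and 8.88 in 3D. The ranges coincided, with a log2 fold change of -0.04 (95% interval -0.34 to 0.26, adjusted p = 0.87). In the regions it had 8.48, 8.12 and 7.96 in the external and 8.60, 8.47, 8.54 and 8.47 in the internal samples, with a log2 fold change of 0.33 (95% interval 0.04 to 0.62, adjusted p = 0.101).

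*Apc*, the scaffold of the degradation complex, had 5.63, 5.50, 5.71 and 5.67 log2 CPM in 2D and 5.03, 5.13, 5.17 and 4.81 in 3D. It was the 1 member whose 3D samples all lay below 2D, with a log2 fold change of -0.59 (SE 0.14, adjusted p = 0.016), not called. In the regions its log2 fold change was 0.06 (95% interval -0.51 to 0.64). *Vangl2* had 3.92, 3.44, -1.08 and 2.36 log2 CPM in 2D, where replicate 3 held 2 reads, and 3.63, 3.50, 3.74 and 3.73 in 3D. The groups overlapped, and the log2 fold change of 1.49 (SE 0.87, adjusted p = 0.256) was 0.41 at its lowest when single samples were left out, which was without 2D replicate 3. *Dvl1*, the Dishevelled gene with most reads, was 0.30 higher in 3D on the log2 scale without overlap (SE 0.11, adjusted p = 0.0953). The 10 members had log2 fold changes between -0.16 and 0.47 in the internal region, 0 were called there, and 1 had a limma p under 0.05 without adjustment. Of all genes, 3.27% were called higher and 4.35% lower there. Such a p was found for 16.1% with a positive and 17.5% with a negative fold change. These counts are therefore not a result about the group either.

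Of the TCF/LEF factors, through which β-catenin acts on genes, 0 of 4 were called in 3D and 2 did not overlap, where 2.92% of all genes were called higher and 24.0% did not overlap. *Lef1* had -0.39, -0.96, -1.49 and -1.54 log2 CPM in 2D and 1.19, 0.14, 0.62 and 0.89 in 3D, from 5, 2, 1 and 1 reads and from 16, 7, 10 and 13 reads. All 3D samples lay above all 2D samples at low read numbers, with a log2 fold change of 1.81 (SE 0.49, adjusted p = 0.0286, or 0.00977 without the variance trend). *Tcf7l1* had 2.73, 2.67, 2.00 and 2.07 log2 CPM in 2D and 3.54, 3.32, 3.89 and 2.92 in 3D. These did not overlap either, with a log2 fold change of 1.05 (SE 0.29, adjusted p = 0.0309). Limma gave both a p under 0.05 without adjustment, and voom called 0 of the 4.

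*Tcf7l2* was the most abundant of the factors, with 5.43, 5.48, 5.95 and 5.63 log2 CPM in 2D and 5.62, 5.43, 5.59 and 5.31 in 3D (log2 fold change -0.13, 95% interval -0.48 to 0.21, adjusted p = 0.582). In the regions it had 5.81, 5.99 and 5.67 in the external and 6.21, 5.94, 5.58 and 6.49 in the internal samples (log2 fold change 0.23, 95% interval -0.21 to 0.67, adjusted p = 0.479). It held 61.5% ± 4.76 of the family's reads in 2D and 53.6% ± 2.34 in 3D, *Tcf7* held 31.7% ± 4.77 and 32.0% ± 3.97, and *Tcf7l1* held 6.52% ± 2.52 and 12.7% ± 2.71. In the regions *Tcf7l2* held 72.2% ± 1.39 in the external and 68.3% ± 5.64 in the internal samples. The log2 fold changes of *Tcf7* and *Tcf7l1* between the regions were 0.61 and 0.31, neither called.

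*Axin2*, the feedback target, did not differ beyond its spread in either comparison. It had 3.35, 0.68, 1.16 and 1.92 log2 CPM in 2D and 2.42, 1.15, 2.41 and 2.15 in 3D, from 10 to 95 and from 16 to 40 reads. The 2D samples enclosed the 3D samples, with a log2 fold change of 0.26 (95% interval -0.97 to 1.48, adjusted p = 0.782). In the regions it had 2.78, 2.68 and 1.70 in the external and 1.26, 2.37, 1.90 and 2.82 in the internal samples, with a log2 fold change of -0.30 (95% interval -1.49 to 0.90, adjusted p = 0.759).

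**Figure D4:**
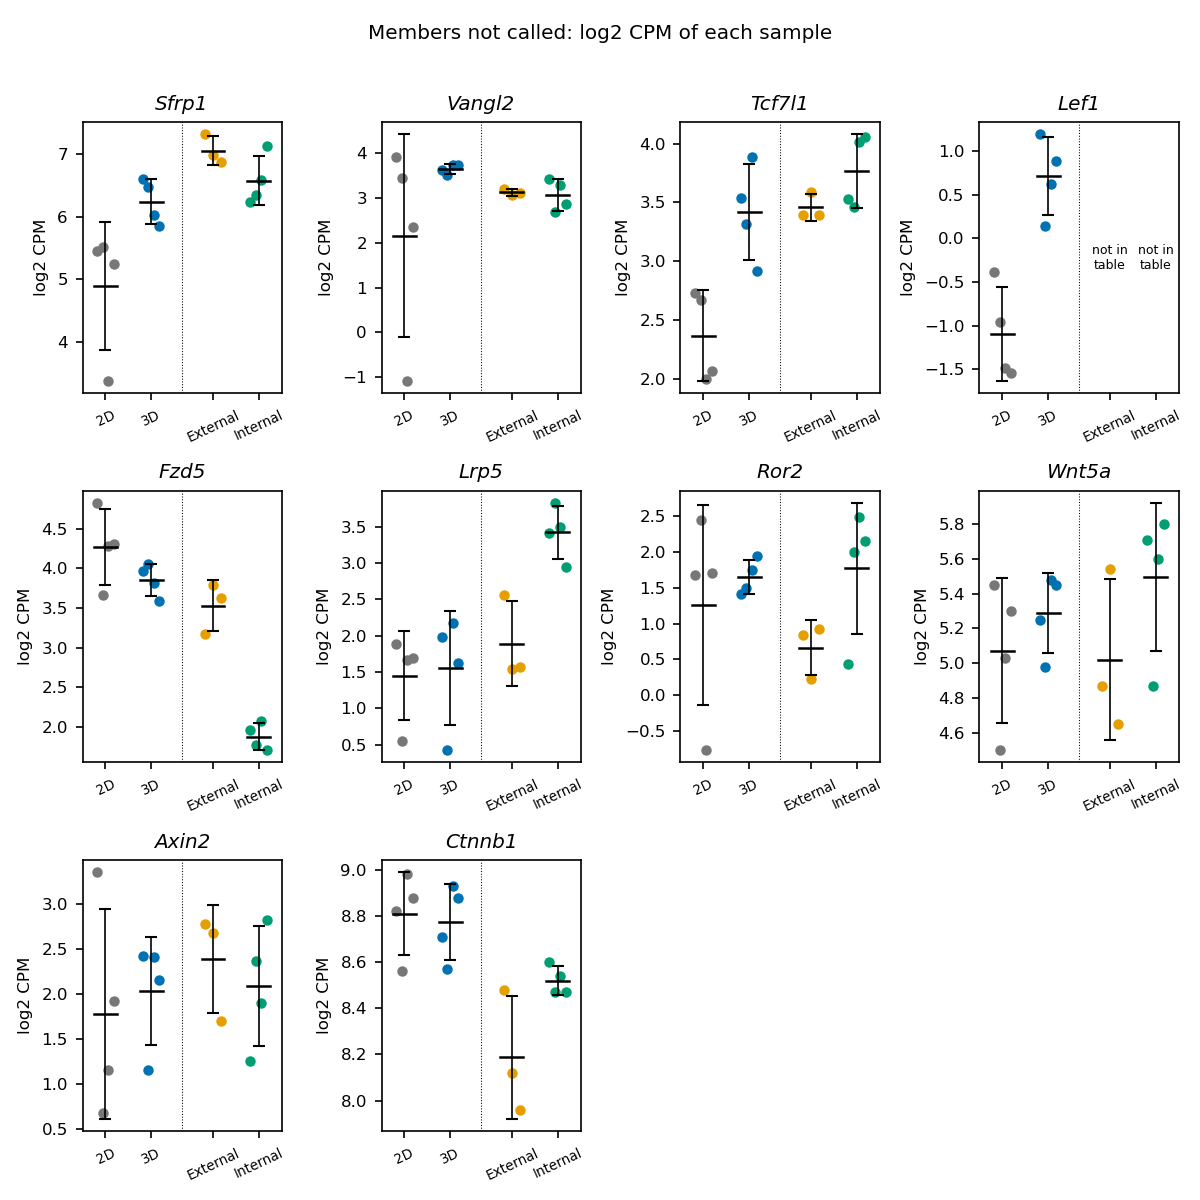
Log2 CPM (y axis) of 10 members that were not called, 1 point per sample, with the group mean (line) and SD (bar); the dotted line separates the 2 tables. *Sfrp1*, *Tcf7l1* and *Lef1* do not overlap between 2D and 3D, *Fzd5* and *Lrp5* do not overlap between the regions, and 2D replicate 3 lies at -1.08 for *Vangl2* and at 3.37 for *Sfrp1*.

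Beyond the 40 members, a list of 141 other pathway genes, also chosen with earlier results known, was examined. Of these, 95 were measured in culture and 90 in the regions. In 3D, 4 of the 95 were called higher (4.21%, against 2.92% of all genes) and 2 lower (2.11%, against 1.51% of all genes), shares near those of all genes. *Rspo3*, a secreted R-spondin that strengthens Wnt signalling, had 8, 0, 0 and 0 reads in 2D and 82, 29, 126 and 64 in 3D. Only 2D replicate 1 held reads of it in 2D, and the log2 fold change was 4.63 (SE 0.62, adjusted p = 0.00146). *Igfbp4*, an IGF-binding protein reported to inhibit Wnt signalling, rose by 3.08 on the log2 scale (SE 0.43, adjusted p = 0.00175), from 1.0 to 3.12 log2 CPM in 2D to 4.39 to 5.51 in 3D, without overlap. *Ccn5*, a matricellular protein reported as a Wnt target, rose by 2.72 (adjusted p = 0.0021), and *Nfatc4*, a calcium-dependent transcription factor, by 1.66 (adjusted p = 0.00804). *Birc5* (survivin) fell by 1.56 (adjusted p = 0.000982) and *Plaur*, the urokinase receptor, fell by 1.11 (adjusted p = 0.00174). Of these, *Igfbp4* (0.0102 in both) and *Ccn5* (0.0114 and 0.0113) had an adjusted p over 0.01 without 3D replicate 3 or 4. *Nfatc4* did so without 2D replicate 1 (0.0123) or 4 (0.0204), without 3D replicate 1 (0.0183), 2 (0.019), 3 (0.0318) or 4 (0.0318), and without the variance trend (0.019).

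In the internal region, 6 of the 90 were called higher (6.67%, against 3.27% of all genes) and 4 lower (4.44%, against 4.35% of all genes). *Rspo3* had 2.60, 2.41 and 2.86 log2 CPM in the external and 6.16, 5.41, 5.62 and 5.69 in the internal samples. No sample of one region came near the other, with a log2 fold change of 3.10 (SE 0.29, adjusted p = 6.1e-08). *Lgr4*, a receptor for R-spondins, had 3.15, 3.27 and 3.39 in the external and 5.45, 4.89, 4.62 and 5.05 in the internal samples (log2 fold change 1.73, SE 0.30, adjusted p = 0.000163). In 3D against 2D the log2 fold change of *Lgr4* was 0.78 (adjusted p = 0.0971). *Ccn5* rose by 1.46 (adjusted p = 1.17e-05), *Ror1*, a receptor related to Ror2, by 1.31 (adjusted p = 0.000664), and *Sox9*, a transcription factor, by 1.29 (adjusted p = 1.99e-05). The sixth was *Vegfa*.

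The genes lower in the internal region were *Birc5*, *Plaur*, *Ccnd1* and *Wnt7b*. *Wnt7b*, a further ligand, had 5.59, 6.41 and 5.67 log2 CPM in the external and 4.19, 3.87, 4.11 and 4.76 in the internal samples, and fell by 1.66 (SE 0.27, adjusted p = 9.48e-05). In 3D against 2D its samples did not overlap in the other direction, with a log2 fold change of 2.18 (SE 0.52, adjusted p = 0.017) that was not called. *Ccnd1*, cyclin D1, had 10.05, 9.85 and 9.63 log2 CPM in the external and 7.85, 8.0, 8.37 and 7.51 in the internal samples, and fell by 1.91 (adjusted p = 1.76e-08). *Birc5* fell by 4.94 (adjusted p = 1.96e-08) and *Plaur* by 2.52 (adjusted p = 5.03e-07). Without the variance trend, *Ccn5* (0.0107), *Ror1* (0.023), *Sox9* (0.0108) and *Wnt7b* (0.014) had an adjusted p over 0.01.

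**Figure D5:**
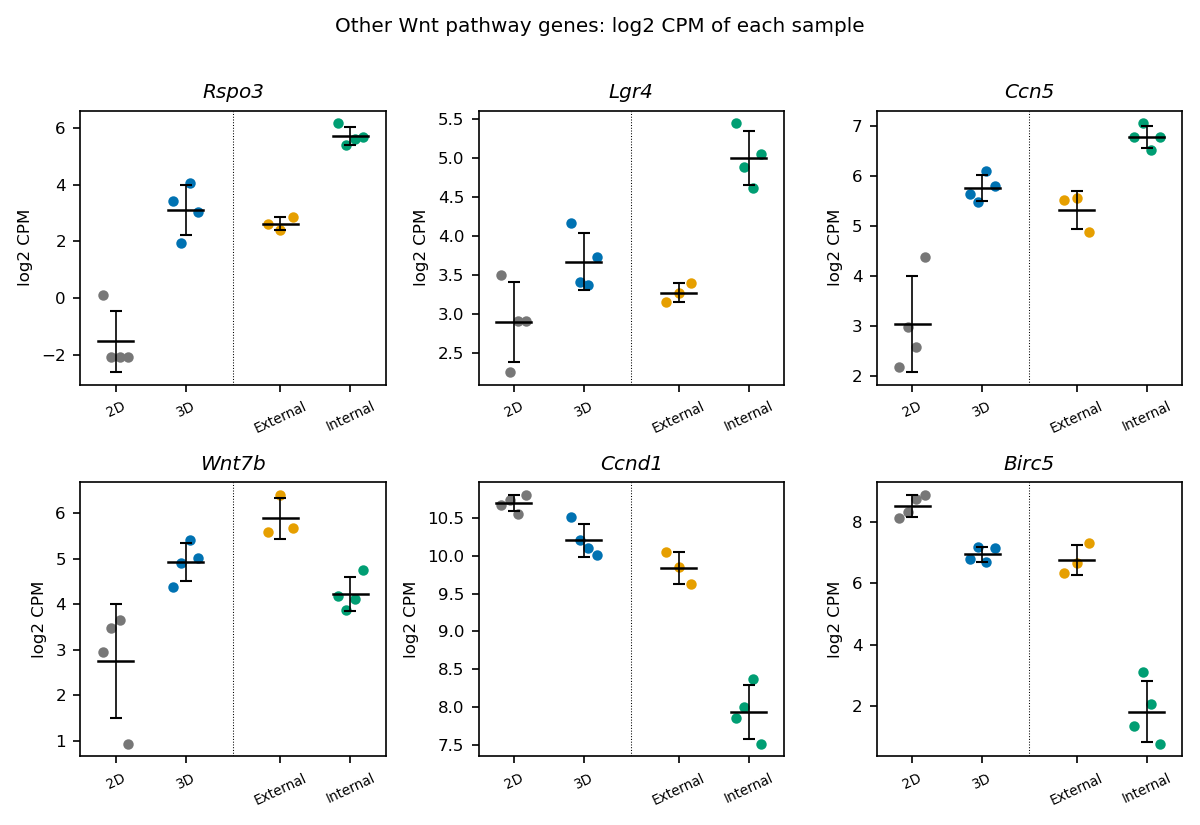
Log2 CPM (y axis) of 6 other Wnt pathway genes, 1 point per sample, with the group mean (line) and SD (bar); the dotted line separates the 2 tables. *Rspo3* is higher in 3D and in the internal region, and *Wnt7b*, *Ccnd1* and *Birc5* are lower in the internal than in the external samples.

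The 2 comparisons share no sample, so the members' directions can be set side by side. Of the 34 members in both tables, 14 had a positive fold change in both, 4 a negative one in both, and 16 had opposite signs, so 52.9% had the same sign, where 63.1% of the 11041 genes in both tables did. *Porcn* (2.75 and 0.84), *Wls* (1.59 and 1.07), *Dkk3* (2.39 and 0.43) and *Fzd6* (1.01 and 1.07) were positive in 3D and in the internal region, while *Wnt6* (2.98 and -0.91), *Dkk2* (0.53 and -2.63) and *Sfrp1* (1.34 and -0.48) were positive in 3D and negative in the internal region.

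Other gene groups moved in the same comparisons. Proliferation markers, 10 genes, summed to between 1294 and 2671 CPM in 2D and between 714 and 895 in 3D, with 6 called lower, and to between 619 and 825 in the external and between 43.6 and 89.1 in the internal region, with 9 called lower. *Birc5* and *Ccnd1* are cell cycle genes as well as reported Wnt targets. Fibroblast markers, of which 8 of 9 were measured in culture, summed to between 124 and 309 CPM in 2D and between 776 and 1179 in 3D, with 5 called higher. In the regions 7 were measured, with sums between 341 and 787 in the external and between 1008 and 1230 in the internal region, 2 higher and 1 lower. Among the mitochondrially encoded genes, 7 of 13 were measured, and they summed to between 21980 and 36477 CPM in 2D, 40440 and 61450 in 3D, 26582 and 38926 in the external and 52802 and 67686 in the internal region. Of the 7, 1 was called higher in 3D, and 4 were called higher and 1, *ND6*, lower in the internal region. The part of these groups in the members' results was not tested.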

How the data were processed

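RNA of 15 samples of 21EM15 cells was measured by 3′ end sequencing, and cultures and microdissected regions were extracted with different kits. Per the labels and the study's methods, the authors kept sense reads, used STAR (2.7.8a) and the GRCm38.p6 genome for alignment and featureCounts (1.6.0) for uniquely mapped reads, and removed genes of low CPM. The authors deposited log2 CPM values per sample in 2 tables, each scaled on its own, with a prior count of 1.757 to 2.304 reads in the cultures and 1.133 to 3.665 in the regions. The authors also deposited columns of their own comparisons, holding a log2 fold change, an F score and a p-value with its false discovery rate, and these were not used. A further external sample, which the study set aside because its expression differed from the external samples kept, was not analysed here.

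Fold changes, standard errors and p-values were computed from the deposited log2 values with limma 3.58.1 in R 4.3.3 (linear model per gene, empirical Bayes with a variance trend, two-sided, Benjamini-Hochberg over all genes of a table), because a count model does not suit log2 CPM. Whole reads were recovered from the spacing of the values for 100.0% of 93416 and 79093 values (tolerance 0.02 reads) and served for read numbers, shares, CPM and the voom alternative. The fit was tested on simulated data. Fold changes of genes with few reads are on the log2 CPM scale and understate the change. Summed CPM and shares used the recovered reads. Gene positions came from GENCODE on the same build, which matched 11676 of 11677 and 11298 of 11299 identifiers. Figures were drawn with matplotlib 3.10.9.

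The members and gene lists were chosen with earlier results of these data known. Members called in a comparison, those with an absolute log2 fold change over 1 and the most abundant member of each role were given sample by sample. *Porcn* and *Apc* were given likewise after their values were seen, and of the other pathway genes the called ones were named, at most 5 per comparison and direction. *Vegfa* was named beyond that rule to complete a count. Alternatives were no variance trend, a robust variance prior, other thresholds, voom, other prior counts, a filter on low means, other scalings, a replicate block and leaving out samples.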

Additional observations from a re-analysis of the deposited data

Results flagged for a closer look

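In groups of 4 samples, a sample was noted when its gap to the nearest other was a share of the group's range above the 95% critical value of Dixon's test, which chance gives in about 1 in 20 groups. Of 110 groups of a member, 9 held such a sample. In the 2D cultures, replicate 3 had 3.37 log2 CPM of *Sfrp1*, where the others had 5.24 to 5.51, and 6.70 of *Gsk3b*, where the others had 6.82 to 6.83. 2D replicate 2 had 5.26 of *Fzd2*, where the others had 6.01 to 6.10, and 0.55 of *Lrp5*, where the others had 1.66 to 1.89. Among the 3D samples, replicate 2 had 1.44 of *Wnt5b*, where the others had 0.18 to 0.30, and 8.09 of *Ryk*, where the others had 8.46 to 8.48, and replicate 4 had 3.07 of *Fzd8*, where the others had 3.36 to 3.39. In the internal region, replicate 3 had 9.43 of *Wls*, where the others had 9.59 to 9.62, and 8.26 of *Dkk2*, where the others had 7.54 to 7.60.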

How the results depend on the processing

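In 3D against 2D, *Porcn* and *Wls* were called under all 20 alternatives, and 0 members were called lower under any. The number called higher was 7 at an adjusted p under 0.05, with *Sfrp1*, *Tcf7l1* and *Lef1* added (5.52% of all genes), and between 2 and 4 when single samples were left out, while the share of all genes called higher then ran from 0.959% to 4.14%. In the regions, *Dkk2* was called lower under all 18 alternatives. The number called higher was 0 and the number lower 2 without the variance trend (*Dkk2* and *Fzd5*). At an adjusted p under 0.05 they were 3 (*Lrp5* added) and 2 (4.77% and 5.65% of all genes). With no fold threshold they were 3 (*Porcn* added) and 1, where 1478 of the 11299 genes passed in either direction. The number higher was 1 with samples centred on their medians and between 0 and 2 when single samples were left out. For those settings, and without the variance trend, the share of all genes is not given here. A change in these counts may therefore be one that all genes share. Small fold changes changed sign when single samples were left out, from -0.11 to 0.78 for *Axin2* and from -0.12 to 0.03 for *Ctnnb1* in 3D, and from -0.01 to 0.49 for *Ryk* in the regions. The cause was not tested. Scaling moved the median of all genes by less than 0.1. Samples of one number did not deviate together in all pairs (correlations 0.227, 0.503, 0.066 and 0.005 in culture and -0.044, -0.065 and -0.063 in the regions), so by the rule used here the numbers were not taken to pair the samples, although those numbered 1 and those numbered 2 in culture deviated together. With the replicate number as a block, 4 members were called higher and 0 lower in 3D and 2 higher and 1 lower in the internal region, as without the block. Depth limits *Wnt6*, *Lef1*, *Wnt5b*, *Ror2*, *Fzd1*, *Fzd7*, *Fzd4*, *Lrp5* and *Vangl2*, which had under 10 reads in at least 1 sample.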
